A study of Mus musculus with 8 samples.

Results

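The Notch pathway was followed through 10 genes in the embryonic mouse gonad: the receptors Notch1, Notch2 and Notch3, the ligands Jag1 and Jag2, the receptor-modifying enzyme Lfng and the nuclear targets Hes1, Hey1, Hey2 and Heyl. They were chosen by name, and every probe set that the array annotation assigned to 1 of them alone was used. This gave 19 probe sets of the 45037 tested, and 10 genes of the 18193 with a probe set of their own. Levels are log2 values from 8 microarrays of mice of the strain C57BL6/J-Tg92 at embryonic day 13, in 4 groups of 2 arrays. Sertoli cells were EGFP-positive cells sorted from XY gonads, about 22000 cells per sample, and pre-granulosa cells were EGFP-positive cells sorted from XX gonads, about 30000 per sample. The labels do not name the promoter that drove EGFP. Testis and ovary samples were whole XY and XX gonads of the same strain and age, 4 pooled per sample, and no group carried a deletion or a treatment. Since the labels do not tie the samples to animals or litters, replicates may be technical, and p-values measure only the spread between these samples.

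Notch receptors sit in the membrane and are activated by Jagged or Delta ligands on a neighbouring cell. Ligand binding leads to cleavage of the receptor, and its freed intracellular domain joins the DNA-binding protein RBPJ in the nucleus to switch on HES and HEY repressor genes. Lunatic fringe, the product of Lfng, adds sugars to Notch in the Golgi and changes which ligands it responds to. In the fetal testis the pathway is known for restraining Leydig progenitors in the interstitium, and in vessels Notch3 and Heyl are known from mural cells.

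A level in a bulk sample mixes composition and content: fewer cells of a type and less RNA per cell cannot be told apart. Array medians averaged 5.58 for sorted cells and 5.97 for gonads, so the sorted and gonad sets appear to have been normalized separately. For sorted cells against gonads each array was therefore taken less its own median, while levels are printed as deposited. In these comparisons the sorted or whole origin of a sample and its set of arrays cannot be told apart. The genes Eif2s3y, Kdm5d and Uty lie on the Y chromosome, and their 9 probe sets reached at most 4.78 in XX arrays, and this value served as the background level. The averages of the marker lists followed the labels. The Sertoli list (8 genes) averaged 10.38 and 10.57 in Sertoli samples, 6.48 and 7.22 in pre-granulosa samples, 10.10 and 9.89 in testes, and 6.10 and 6.30 in ovaries. Of its genes, 6 were higher and 1 lower without overlap in pre-granulosa cells than in ovaries, with 0 called. Of all genes 31.9% were higher. Sox9 had 9.46 and 10.56 in pre-granulosa samples against 8.07 and 8.41 in ovaries. Between the sorted cells Sox9 differed by 1.73 ± 0.37 (log2 ± SE, limma adjusted p = 0.0541). The pre-granulosa list (7 genes) averaged 5.99 and 5.77 in Sertoli samples, 10.41 and 9.92 in pre-granulosa samples, 6.55 and 6.62 in testes, and 10.18 and 10.06 in ovaries. Replicates spread more in sorted cells, with a root mean square SD of 0.428 in Sertoli and 0.531 in pre-granulosa cells, against 0.198 in testes and 0.299 in ovaries. The model pooled these, which makes its error on average too small for the sorted cells and too large for the gonads.

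Promoter sequences are shown for Lfng and Hey2, the genes with the lowest adjusted p among the 10 in Sertoli against pre-granulosa cells and in testis against ovary. RBPJ is known to bind the letters TGGGAA, and HES and HEY proteins bind N-box and E-box letters. The sequences are from RefSeq on build GRCm38.p6, run 5′ to 3′ on the strand of the gene and end 6 bases past the annotated start. Capitals mark TGGGAA or its reverse complement, and in Lfng also the E box CACGTG. Lfng lies at chr5:140607091-140607346 on the plus strand and Hey2 at chr10:30842778-30843033 on the minus strand.
Lfng: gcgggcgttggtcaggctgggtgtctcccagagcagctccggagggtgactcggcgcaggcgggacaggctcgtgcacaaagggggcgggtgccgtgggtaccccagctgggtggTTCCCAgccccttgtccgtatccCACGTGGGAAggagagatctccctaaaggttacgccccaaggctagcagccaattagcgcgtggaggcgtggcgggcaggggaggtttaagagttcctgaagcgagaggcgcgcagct
Hey2: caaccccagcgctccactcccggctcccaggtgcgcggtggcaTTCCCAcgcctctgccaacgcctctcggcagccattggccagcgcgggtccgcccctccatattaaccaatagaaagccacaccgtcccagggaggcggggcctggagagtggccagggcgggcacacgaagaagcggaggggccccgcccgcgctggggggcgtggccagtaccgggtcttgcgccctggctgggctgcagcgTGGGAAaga

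In Lfng, TGGGAA lay at -135 to -130 on the opposite strand and at -108 to -103 on the strand of the gene, counted from the start. The E box at -112 to -107 overlapped the nearer of them. In Hey2 it lay at -207 to -202 on the opposite strand and at -3 to 3 on the strand of the gene. The promoter table held none for the targets Hes1, Hey1 and Heyl, so these were not searched. The search covered a window of 300 bases on either strand, 250 before the start and 50 from it onward. Of the 7 members with a promoter, TGGGAA was found in 2, Lfng and Hey2. It was found in 25.6% of all 32851 promoters of the same length. Its longer form GTGGGAA was found in the same 2 of 7, against 6.38% of all. The N box CACNAG was found in 4 of 7 (Notch1, Notch2, Notch3 and Lfng) against 42.5%, and CACGTG in 1 of 7 (Lfng) against 7.15%. These matches are letters in a window and say nothing about binding.

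Between the sorted cells, the clearest member was Lfng, which read higher in Sertoli than in pre-granulosa cells but missed the threshold. Jag1 also read higher in Sertoli cells and Hey1 lower, each with replicates far apart. With limma, 0 of 19 member probe sets were called higher and 0 lower at an adjusted p of at most 0.01, while of all probe sets 0.999% were called higher and 0.813% lower. At an unadjusted p under 0.05, 3 member probe sets were higher and 1 lower, against 4167 and 4365 of all 45037. The groups did not overlap for 5 higher and 3 lower, against 20.9% and 20.5% of all probe sets. The median difference over the 10 genes was 0.25, beside 0.04 over all genes.

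Between whole gonads, Hey2 and Heyl showed the clearest differences, both reading higher in testes, and neither passed the threshold. With the chosen probe set of each gene, testes lay above ovaries without overlap for 7 of the 10 genes and below for 0, against 24.4% and 30.7% of all genes. Of these 7, Notch1 and Lfng turned sign with their other probe set. With limma 0 of 19 probe sets were called in either direction, where 0.155% of all were called higher and 0.0600% lower. At an unadjusted p under 0.05, 7 member probe sets were higher and 0 lower, against 2188 and 2004 of all 45037. The groups did not overlap for 11 higher and 1 lower of the 19, against 23.0% and 27.0% of all. The gene median was 0.52, beside -0.04 over all genes.

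Against whole gonads, Notch3, Hey2, Heyl and Jag1 each had a probe set that was called lower in both sorted populations. Notch1 and Lfng each had 1 that was lower without overlap in both but not called. Their other probe sets read higher in Sertoli cells than in testes. In Sertoli cells against testis 6 of 19 member probe sets were called lower and 0 higher, where 3.73% of all were called lower and 2.97% higher. In pre-granulosa cells against ovary 4 of 19 were called lower and 0 higher, where 3.08% and 2.43% of all were. Without either testis array the count for Sertoli against testis was 0, without either ovary array it was 4, and without either Sertoli array it was 3. For pre-granulosa against ovary it was 0 without any 1 of the testis or ovary arrays, so every call given below for a member was lost in those settings. The groups did not overlap for 12 lower and 4 higher probe sets in Sertoli cells against testis (28.0% and 46.8% of all), and for 12 lower and 2 higher in pre-granulosa cells against ovary (26.4% and 39.9%). The gene median was -1.44 in Sertoli cells against testis, beside 0.10 over all genes. In pre-granulosa cells against ovary it was -0.98, or -0.93 with genes at background set to their bound, beside -0.01 over all genes.

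**Figure D1:**
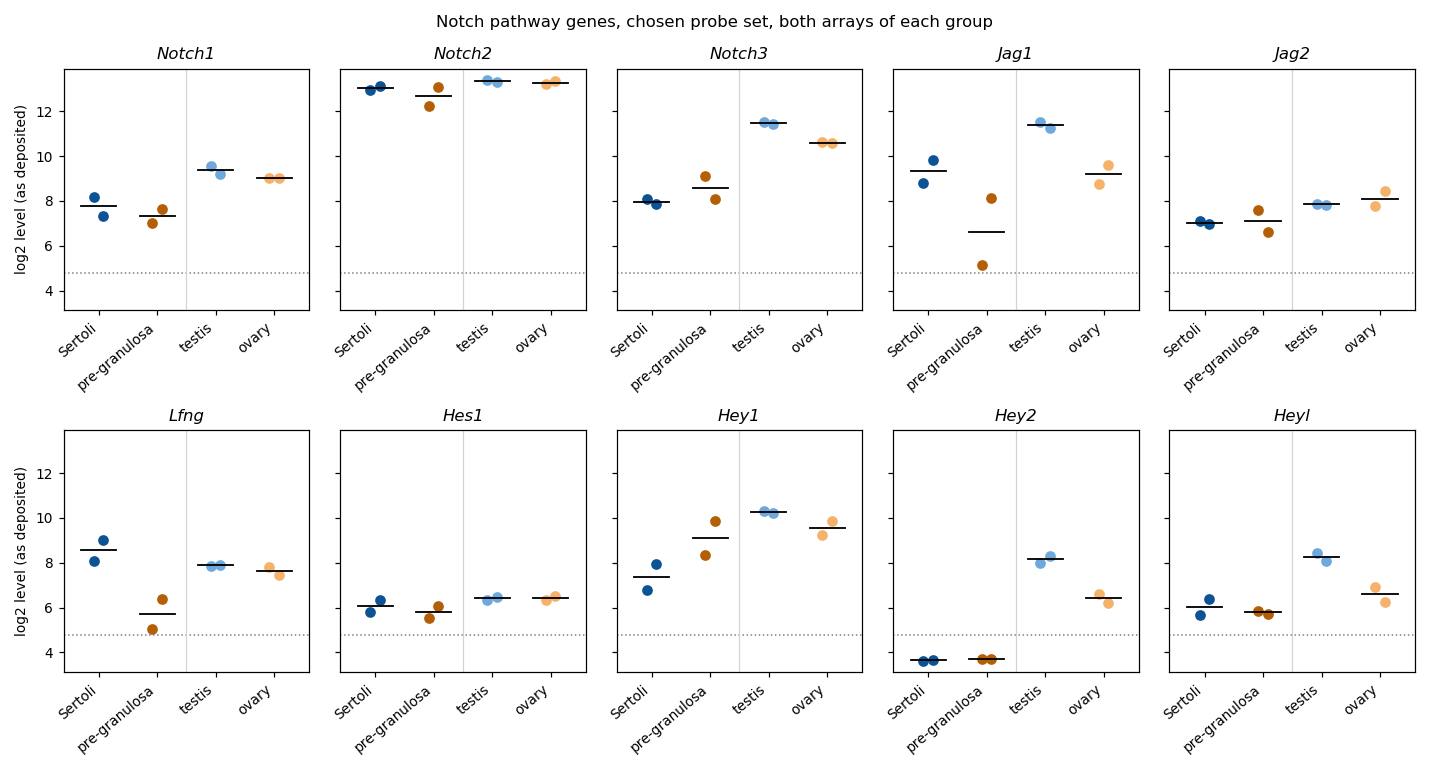
Log2 level as deposited (vertical axis) of each of the 10 genes in Sertoli cells, pre-granulosa cells, testes and ovaries; points are the 2 arrays of a group, lines their mean, and the dotted line is the background level of 4.78. Lfng separates the sorted groups, while Hey2 lies under the line in sorted cells and at 6.20 to 8.31 in gonads.

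Among the receptors, Notch2 read high everywhere and Notch3 separated gonads from sorted cells. Notch2 had 12.93 and 13.10 in Sertoli samples, 12.25 and 13.08 in pre-granulosa samples, 13.41 and 13.28 in testes, and 13.20 and 13.33 in ovaries. With each array's median removed the groups ran Sertoli, testis, ovary, pre-granulosa, and every neighbouring pair overlapped. The difference was 0.35 ± 0.28 between Sertoli and pre-granulosa cells and 0.08 ± 0.28 between testes and ovaries (log2 ± SE), and neither passed the test (limma adjusted p = 0.580 and 0.998).

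Notch3 read 8.08 and 7.86 in Sertoli samples, 9.10 and 8.09 in pre-granulosa samples, 11.51 and 11.42 in testes, and 10.61 and 10.59 in ovaries. Every gonad array stood above every sorted array, and testis stood above ovary without overlap. Its other probe set had 7.07 and 6.80, 6.91 and 7.32, 10.91 and 10.95, and 9.59 and 9.88 in the same order of groups. Notch3 was lower in Sertoli cells than in testes with both probe sets, 8.56-fold with the brighter one (-3.10 ± 0.32, limma adjusted p = 0.00326) and 12.1-fold with the other (-3.60 ± 0.21, adjusted p = 0.00103). In pre-granulosa cells against ovaries the brighter probe set missed the threshold (-1.63 ± 0.32, adjusted p = 0.0191), and the other was called, 4.72-fold lower (-2.24 ± 0.21, adjusted p = 0.00272). For the brighter one the value was -2.12 without pre-granulosa replicate 1, which passed (adjusted p = 0.00417), and -1.13 without replicate 2, which narrowly missed, both from a lone array assumed to vary like the other groups. The call for Sertoli cells against testes with the brighter probe set was lost when any 1 array of Sertoli cells, testes or ovaries was left out (adjusted p of 0.0119 to 0.0380). For testis minus ovary the differences were 0.86 ± 0.32 (adjusted p = 0.472) and 1.19 ± 0.21 (adjusted p = 0.0912).

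The probe sets of Notch1 disagreed. The brighter one read 8.18 and 7.33 in Sertoli samples, 7.01 and 7.62 in pre-granulosa samples, 9.57 and 9.18 in testes, and 9.02 and 9.03 in ovaries. The other read 6.87 and 7.33, 6.25 and 6.30, 6.60 and 6.66, and 6.96 and 6.95. In Sertoli cells against testes the brighter gave -1.22 ± 0.34 (limma adjusted p = 0.0463) and the other 0.87 ± 0.19 (adjusted p = 0.0225). They also pointed opposite ways for testis minus ovary, at 0.35 ± 0.34 and -0.33 ± 0.18 (adjusted p = 0.910 and 0.720). No direction is therefore given for Notch1 in these comparisons. In pre-granulosa cells against ovaries both were negative, at -1.33 ± 0.34 and -0.30 ± 0.19 (adjusted p = 0.0404 and 0.275). Between sorted cells both were positive, at 0.44 ± 0.34 and 0.82 ± 0.18 (adjusted p = 0.580 and 0.0607).

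Of the ligands, Jag1 varied widely. Its brightest probe set read 8.81 and 9.83 in Sertoli samples, 5.13 and 8.11 in pre-granulosa samples, 11.50 and 11.25 in testes, and 8.75 and 9.61 in ovaries. Sertoli cells stood above pre-granulosa cells and testes above ovaries, without overlap, but the pre-granulosa arrays lay far apart (SD 2.11). The difference was 2.70 ± 0.94 between the sorted cells and 2.19 ± 0.94 between the gonads, and neither passed the test (limma adjusted p = 0.188 and 0.565). The pre-granulosa array with little Jag1 was replicate 1. The interstitial list averaged 7.26 on it against 8.02 on replicate 2, and the endothelial list 5.25 against 5.80. Of their genes, chosen after their values were seen, Nr2f2, an interstitial marker, had 5.80 on it against 9.82 on replicate 2, and Tek, an endothelial marker, had 4.83 against 7.98. The other measured interstitial genes differed little between replicates 1 and 2. Pdgfra had 7.50 and 7.64, Tcf21 5.43 and 5.28, Gli1 5.39 and 5.28, and Ptch1 12.17 and 12.08. The other endothelial genes went both ways, as in Cdh5 (5.06 and 4.69) and Emcn (3.93 and 5.26). Replicate 1 also had the larger 3′ to 5′ gap in the actin and Gapdh control probe sets, 3.08 and 3.68 against 1.70 and 1.24 on replicate 2. The part of these in the Jag1 values was not tested. For pre-granulosa minus ovary Jag1 gave -2.18 ± 0.94 (adjusted p = 0.140) with both arrays, -0.68 (adjusted p = 0.387) without replicate 1 and -3.68 (adjusted p = 0.00872) without replicate 2, so its size rests on which array is kept.

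A dimmer Jag1 probe set read 4.08 and 3.96 in Sertoli cells, with 3.94 and 3.73 in pre-granulosa cells, all under background, against 6.97 and 7.23 in testes and 5.97 and 6.51 in ovaries. It was called lower in Sertoli cells than in testes, by at least 3.78-fold (limma adjusted p = 0.00194), and in pre-granulosa cells than in ovaries, by at least 2.10-fold (adjusted p = 0.00405). The remaining Jag1 probe set stayed between 5.22 and 5.51 on all arrays. The brightest probe set thus read above background in sorted cells where the dimmer one did not, and the size of the difference from gonads depends on the probe set. For Sertoli minus testis the brightest gave -1.66 ± 0.94 (adjusted p = 0.225).

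Jag2, the other Jagged ligand, read 7.11 and 6.96 in Sertoli samples, 7.58 and 6.61 in pre-granulosa samples, 7.88 and 7.81 in testes, and 7.76 and 8.43 in ovaries. All neighbouring groups overlapped once array medians were removed. Its differences ranged from -0.62 ± 0.35 in pre-granulosa cells against ovaries to -0.06 ± 0.36 in Sertoli against pre-granulosa cells, and none was called (limma adjusted p = 0.236 and 0.967). Its other probe set gave differences of -0.12 to 0.10.

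Lfng, the fringe enzyme, read 8.10 and 9.01 in Sertoli samples, 5.06 and 6.38 in pre-granulosa samples, 7.88 and 7.92 in testes, and 7.82 and 7.44 in ovaries. With array medians removed the groups ran Sertoli, testis, ovary, pre-granulosa, and no neighbours overlapped. The level in Sertoli cells was 7.15 times that in pre-granulosa cells, a difference of 2.84 ± 0.48 with a limma adjusted p of 0.0271, which missed the threshold. Without pre-granulosa replicate 1 it was 2.18 (adjusted p = 0.0346), and without replicate 2 it was 3.50 and passed (adjusted p = 0.00808). The array kept without replicate 2 is the one with the larger 3′ to 5′ gap given for Jag1. A group left with 1 array is assumed to vary like the others. In the gonads the difference was 0.27 ± 0.48 (adjusted p = 0.978). The test of sorted against whole-gonad differences gave 2.57 ± 0.69 (adjusted p = 0.230), so they were not shown to differ. Against gonads Lfng gave 1.06 ± 0.49 in Sertoli cells (adjusted p = 0.153) and -1.53 ± 0.49 in pre-granulosa cells (adjusted p = 0.0707). Its dimmer probe set read 5.07 to 6.29 on all arrays and showed no such difference, at 0.04 ± 0.24 between the sorted cells.

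**Figure D2:**
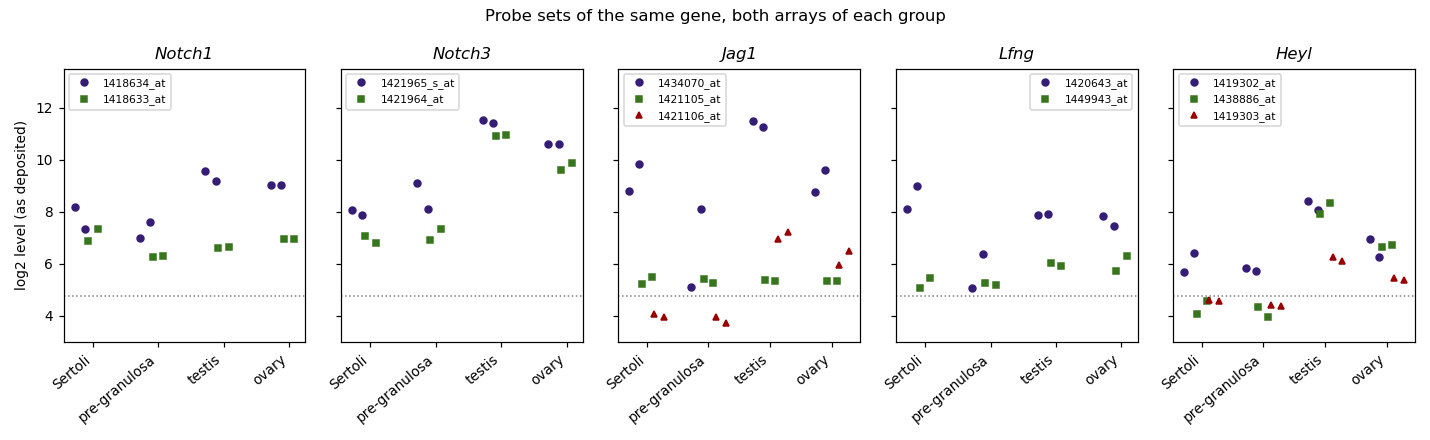
Log2 level as deposited (vertical axis) of each probe set of Notch1, Notch3, Jag1, Lfng and Heyl in Sertoli cells, pre-granulosa cells, testes and ovaries; each symbol is 1 array and the dotted line the background level of 4.78. The Notch3 probe sets both read higher in gonads than in sorted cells, and the brightest probe sets of Jag1 and Lfng differ more between the sorted groups than their dimmer ones.

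The targets did not move as a block. Hes1, a widely used Notch target, read 5.79 and 6.34 in Sertoli samples, 5.55 and 6.09 in pre-granulosa samples, 6.36 and 6.48 in testes, and 6.35 and 6.53 in ovaries. All neighbouring groups overlapped with array medians removed. Sertoli less pre-granulosa cells gave 0.24 ± 0.26, testes less ovaries -0.02 ± 0.26, Sertoli cells less testes 0.04 ± 0.27 and pre-granulosa cells less ovaries -0.24 ± 0.27. None was called, and the lowest limma adjusted p was 0.529.

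Hey1, a repressor of the same family, read 6.78 and 7.93 in Sertoli samples, 8.34 and 9.88 in pre-granulosa samples, 10.30 and 10.23 in testes, and 9.26 and 9.88 in ovaries. It ran opposite ways in the comparisons of XY with XX, at -1.76 ± 0.59 in the sorted cells and 0.70 ± 0.59 in the gonads. Neither was called (limma adjusted p = 0.172 and 0.872), and the difference between them, -2.46 ± 0.83, was not either (adjusted p = 0.338). Sertoli cells stood under testes without overlap (-2.51 ± 0.59, adjusted p = 0.0289), while pre-granulosa cells and ovaries overlapped (-0.07 ± 0.59, adjusted p = 0.938). Without pre-granulosa replicate 1 the difference between the sorted cells was -2.53, and without replicate 2 it was -0.99. For pre-granulosa minus ovary Hey1 gave 0.71 without replicate 1 and -0.85 without replicate 2, so its sign there rests on which array is kept.

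Hey2, a repressor known from heart and arterial vessels, was seen in gonads and not above background in sorted cells. It read 3.62 and 3.67 in Sertoli cells, with 3.70 and 3.72 in pre-granulosa cells, against 7.99 and 8.31 in testes and 6.62 and 6.20 in ovaries. Hey2 was lower in Sertoli cells than in testes by at least 7.83-fold (limma adjusted p = 8.05e-04) and in pre-granulosa cells than in ovaries by at least 2.37-fold (adjusted p = 0.00250). These calls were lost without either testis array for Sertoli cells (adjusted p = 0.0158 and 0.0162), and without any 1 testis or ovary array for pre-granulosa cells (adjusted p of 0.0114 to 0.0187). The level in testes was 3.34 times that in ovaries (1.74 ± 0.20), the lowest adjusted p of any member there, 0.0240. With 1 weight per group it was called (adjusted p = 0.00587). For Hey2 itself the gonad replicates were the wider ones. Its SD was 0.232 in testes and 0.300 in ovaries, against 0.035 in Sertoli and 0.009 in pre-granulosa cells, both under background. The model pooled these, which makes its error for Hey2 too small for the gonads, unlike the average over all probe sets. Across the settings tried, the limma adjusted p for testis minus ovary ran from 0.00587 to 0.222. Both sorted groups lay under background, so no fold between them is given, and the difference between the sorted and the gonad comparison was not called (-1.81 ± 0.28, adjusted p = 0.0756).

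Heyl, the third HEY repressor, behaved alike in all 3 of its probe sets between gonads. The brightest read 5.68 and 6.40 in Sertoli samples, 5.86 and 5.73 in pre-granulosa samples, 8.42 and 8.07 in testes, and 6.94 and 6.25 in ovaries. A dimmer one read 4.08 and 4.59, 4.35 and 3.96, 7.93 and 8.35, and 6.67 and 6.72, and the dimmest 4.61 and 4.57, 4.42 and 4.39, 6.28 and 6.12, and 5.45 and 5.37. Testes stood above ovaries without overlap in each, by 1.65 ± 0.33, 1.45 ± 0.25 and 0.79 ± 0.14, and none was called (limma adjusted p = 0.131, 0.0936 and 0.0879). The dimmer ones were under background in both sorted groups. In Sertoli cells against testes they were called lower by at least 7.79-fold and at least 2.03-fold (adjusted p = 0.00159 and 0.00411), and the brightest missed the threshold at -1.81 ± 0.33 (adjusted p = 0.0148). In pre-granulosa cells against ovaries 1 was called, lower by at least 2.89-fold (adjusted p = 0.00510), while the dimmest (adjusted p = 0.0257) and the brightest (-0.42 ± 0.33, adjusted p = 0.380) were not.

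**Figure D3:**
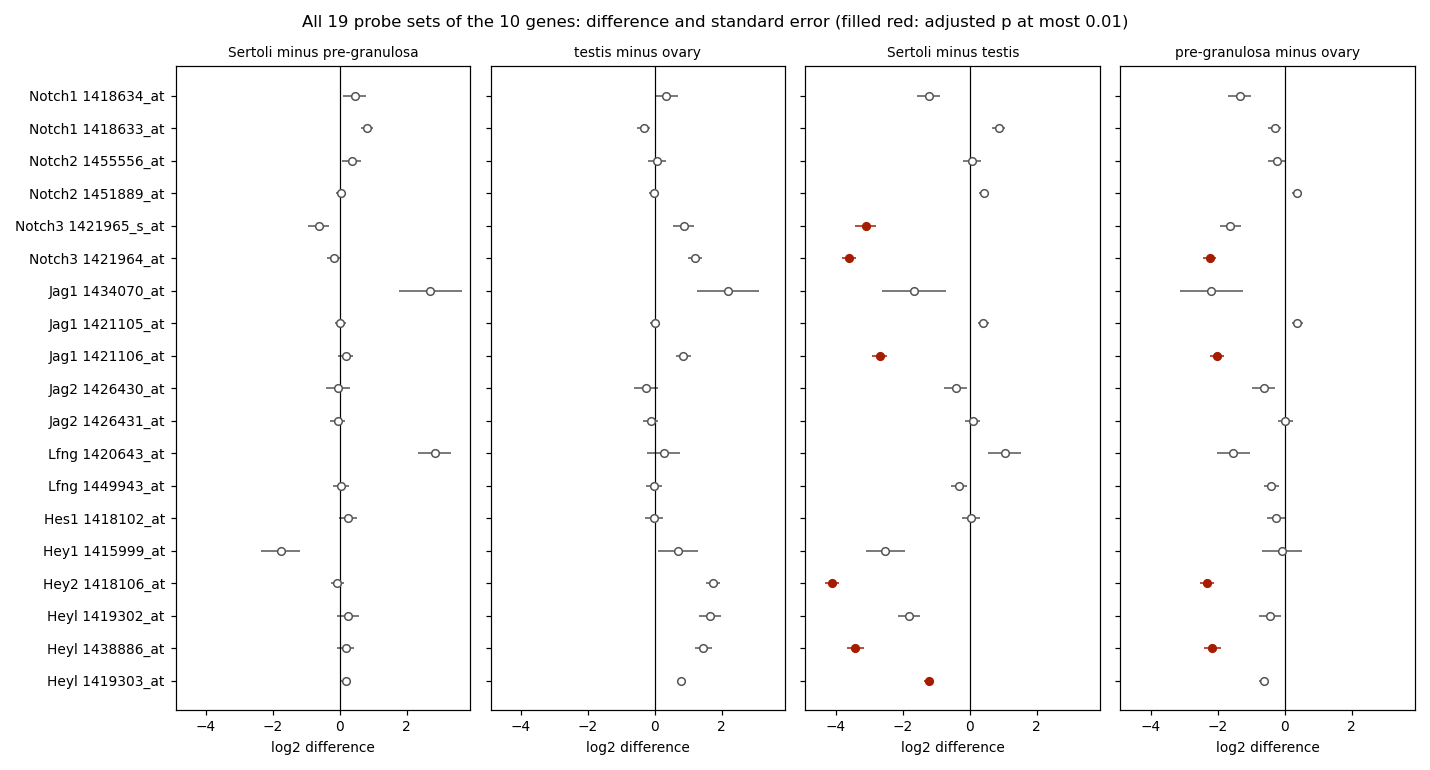
Log2 difference with the standard error of the model (horizontal axis) for all 19 probe sets in the 4 comparisons; filled red points have an adjusted p of at most 0.01. The 6 calls in Sertoli minus testis and the 4 in pre-granulosa minus ovary all lie left of 0, and the comparisons of XY with XX have none.

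No member probe set was called in the test of whether Sertoli minus pre-granulosa differed from testis minus ovary (limma, 0 of 19, with 2 higher and 7 lower at an unadjusted p under 0.05). Over all probe sets 0% were called there, and 2500 were higher and 2642 lower of 45037 at an unadjusted p under 0.05. Hey2 had the lowest adjusted p, given above. The values for Notch3 were -1.49 ± 0.45 and -1.38 ± 0.29 (adjusted p = 0.289 and 0.149).

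Other cell types of the gonad moved with these results. In Sertoli cells against testes, 5 of 5 measured germ cell markers, 3 of 5 interstitial markers, 3 of 8 pericyte and smooth muscle markers, 1 of 12 endothelial markers and 3 of 4 erythroid markers were called lower. In pre-granulosa cells against ovaries it was 5 of 5, 2 of 5, 4 of 8, 5 of 12 and 2 of 4. Of all 18193 genes, 800 were called lower in Sertoli cells against testes and 747 in pre-granulosa cells against ovaries. The summed level of the pericyte and smooth muscle list (log2 of the summed intensities) was 9.95 and 9.84 in Sertoli samples, 9.20 and 9.20 in pre-granulosa samples, 11.80 and 11.80 in testes, and 11.09 and 11.17 in ovaries. In each sorted group 2 of its 8 genes were at or under background. The endothelial list summed to 10.05 and 10.27 in Sertoli samples, 9.11 and 9.79 in pre-granulosa samples, 11.41 and 11.65 in testes, and 11.66 and 11.65 in ovaries. Of its 12 genes, 1 was at or under background in the Sertoli group, and 2 were in the pre-granulosa group. The interstitial list summed to 13.26 and 13.25 in Sertoli samples, 12.27 and 12.43 in pre-granulosa samples, 14.62 and 14.58 in testes, and 13.41 and 13.59 in ovaries, with 0 of 5 at background. Most of this sum in sorted cells was Ptch1, with 13.13 and 13.07 in Sertoli samples and 12.17 and 12.08 in pre-granulosa samples. With array medians removed, 4 of its 5 genes lay under the gonads without overlap in both sorted groups, and Ptch1 lay above. Of all genes 32.5% lay under in Sertoli cells against testis and 32.8% in pre-granulosa cells against ovary. In Sertoli cells against testis Pdgfra gave -5.10, Tcf21 -4.22 and Ptch1 0.32. The germ cell list summed to 6.72 and 7.15 in Sertoli samples, 6.82 and 6.53 in pre-granulosa samples, 12.83 and 12.56 in testes, and 12.81 and 12.74 in ovaries. In each sorted group 3 of the 5 germ cell genes were at or under background. The part of these cell types in the member differences was not tested.

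Between the gonads, the members that read higher in testes did so beside the interstitial list, whose 5 measured genes were all higher in testes without overlap (0 called, median difference 1.42). Tcf21, a stromal transcription factor, had 11.10 and 11.03 in testes against 9.50 and 9.79 in ovaries, and the hedgehog target Gli1 had 7.43 and 7.85 against 5.98 and 6.24. Acta2, smooth muscle actin, had 10.65 and 10.55 in testes against 8.47 and 9.04 in ovaries. The pericyte and smooth muscle list, which holds Acta2, had 5 genes higher and 3 lower without overlap, 0 of 8 called and a median difference of 0.31. Among its lower genes were Rgs5 (-0.30), Kcnj8 (-0.64) and Abcc9 (-0.67). The fetal Leydig list was called higher for 3 of 4 genes. The endothelial list had 3 genes higher and 3 lower without overlap, of 12, and a median difference of -0.16. Of all genes, 24.4% were higher in testes and 30.7% lower without overlap, and 0.352% were called in either direction. The part of these cell types in the Hey2, Heyl, Notch3 and Jag1 differences was not tested. Between the sorted cells, 7 of 12 endothelial genes and 4 of 4 fetal Leydig genes were higher in Sertoli cells without overlap. The part of these cell types in the Jag1 and Lfng differences between the sorted cells was not tested. Of all genes 24.2% were higher without overlap in this comparison. By limma 1 of the 12 and 0 of the 4 were called. The macrophage list had 5 of 7 genes higher in Sertoli cells without overlap and 0 lower. Of these C1qb alone was called (4.49 ± 0.45, limma adjusted p = 0.00504), where 2.67% of all genes were. It had 9.21 and 10.21 in Sertoli samples against 4.69 and 5.75 in pre-granulosa samples. Csf1r had 6.54 and 10.86 against 5.38 and 3.65, while Adgre1 and Ptprc overlapped. The pericyte and smooth muscle list had 5 of 8 genes higher without overlap, 0 lower and 0 called. The part of these lists in the member differences was not tested.

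**Figure D4:**
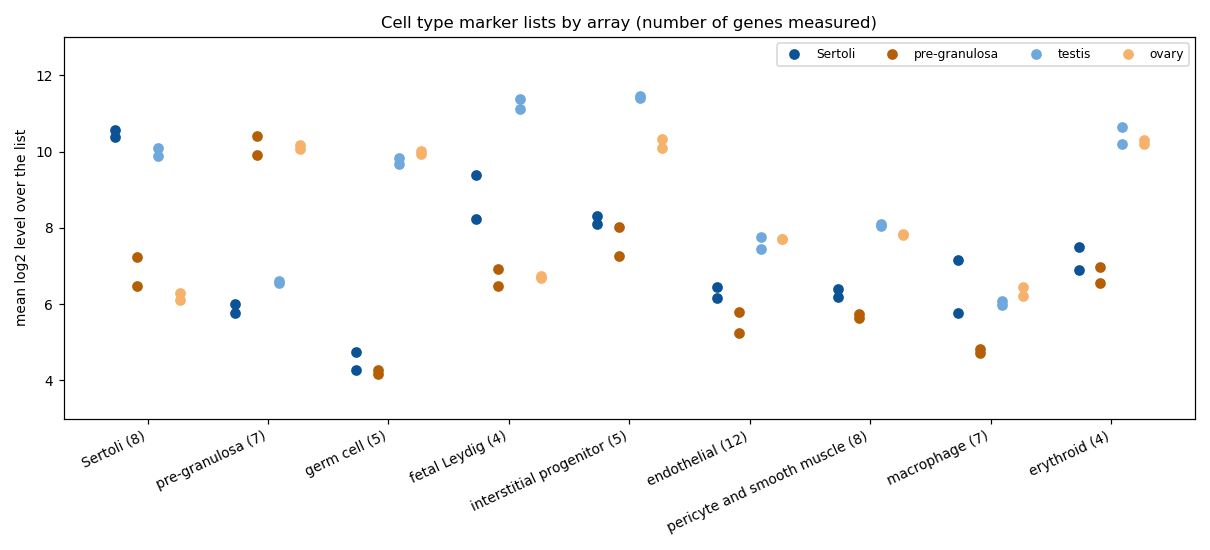
Mean log2 level as deposited (vertical axis) of each list of cell type markers on every array, with the number of measured genes in brackets; colours are Sertoli cells, pre-granulosa cells, testes and ovaries. Germ cell, interstitial, endothelial, and pericyte and smooth muscle lists read lower in sorted cells than in gonads, and the interstitial list reads higher in testes than in ovaries.

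The rest of the pathway was read from a list of 50 genes, of which the 46 with a probe set of their own were used here. Among genes, 2.67% of all were called in either direction in Sertoli against pre-granulosa cells, 0.352% in testis against ovary, 6.87% in Sertoli cells against testis and 5.40% in pre-granulosa cells against ovary. Of the 46, 1, 0, 1 and 3 were called in these comparisons. In testis against ovary 2 were higher and 1 lower at an unadjusted p under 0.05, where 979 and 1111 of all 18193 genes were. Leaving out 1 array moved these counts. In Sertoli against pre-granulosa cells the count was 0 without any 1 of the Sertoli, testis or ovary arrays and 2 without pre-granulosa replicate 2. For Sertoli cells against testis it was 0 without any of those same arrays and 5 without either pre-granulosa array. For pre-granulosa cells against ovary it was 0 without either ovary array, 1 without any 1 Sertoli or testis array or pre-granulosa replicate 1, and 7 when the other pre-granulosa array was left out. In the difference of the comparisons 0 of 46 were called by limma. At an unadjusted p under 0.05, 3 were higher and 2 lower, where 1398 and 969 of all 18193 genes were.

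Among the ligand-like genes, calls were made for Dner and Dlk1. Dner, a Delta-like membrane protein known from neurons, averaged 6.05 ± 0.07 in Sertoli cells, 3.48 ± 0.28 in pre-granulosa cells, 7.91 ± 0.27 in testes and 7.68 ± 0.41 in ovaries (mean log2 ± SD, n = 2 each). It was higher in Sertoli than in pre-granulosa cells by at least 2.41-fold (limma adjusted p = 0.00527) and lower in pre-granulosa cells than in ovaries by at least 5.73-fold (adjusted p = 0.00157). The means of its other probe set, 3.54 to 4.18, lay under background in all groups, so it gives no fold. Dlk1, a Delta-like protein that lacks the receptor-binding domain of the classical ligands, read 8.94 and 8.53 in Sertoli samples, 6.52 and 7.29 in pre-granulosa samples, 10.31 and 10.40 in testes, and 9.56 and 10.10 in ovaries. It was lower in pre-granulosa cells than in ovaries (-2.55 ± 0.32, adjusted p = 0.00580), and its difference between the sorted cells missed the threshold (1.83 ± 0.32, adjusted p = 0.0284).

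Among co-repressors, Tle2 and Tle3, homologues of fly Groucho that HES proteins recruit, were called in different comparisons of sorted cells with gonads. Tle3 had 8.41 and 9.10 in Sertoli samples, 9.94 and 10.33 in pre-granulosa samples, 11.02 and 10.99 in testes, and 11.08 and 11.11 in ovaries. It was lower in Sertoli cells than in testes (-1.85 ± 0.26, limma adjusted p = 0.00713), as was a further probe set (-1.93 ± 0.26, adjusted p = 0.00668). The difference between the sorted cells was -1.38 ± 0.26 (adjusted p = 0.0359). Tle2 had 8.69 and 8.40 in Sertoli samples, 9.87 and 9.26 in pre-granulosa samples, 7.49 and 7.74 in testes, and 8.14 and 8.26 in ovaries. It was higher in pre-granulosa cells than in ovaries (1.74 ± 0.24, adjusted p = 0.00726), with -1.02 ± 0.24 between the sorted cells (adjusted p = 0.0728).

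In the genes of trafficking and turnover none of the 11 chosen probe sets was called in any of the 4 comparisons by limma. Dtx4, a Deltex ubiquitin ligase, read 9.48 and 9.27 in Sertoli samples, 7.69 and 6.58 in pre-granulosa samples, 9.37 and 9.11 in testes, and 7.91 and 7.52 in ovaries. XY samples stood above XX samples in both pairs, by 2.24 ± 0.37 in sorted cells (adjusted p = 0.0240) and 1.53 ± 0.37 in gonads (adjusted p = 0.210). Its other probe set passed in the sorted cells, at 2.78 ± 0.27 (adjusted p = 0.00455). Itch, another ubiquitin ligase, had 1 of 4 probe sets called between the sorted cells, lower in the Sertoli samples, at -1.85 ± 0.23 (adjusted p = 0.00897), while the chosen one was not, at -0.88 ± 0.24 (adjusted p = 0.104). This second Itch probe set and that of Dtx4 were looked up after their values were seen. Of all 95 probe sets of the other pathway genes, 2 were called higher and 1 lower between the sorted cells. The shares of all probe sets were 0.999% and 0.813%. It was 1 and 3 in Sertoli cells against testis (2.97% and 3.73% of all). In pre-granulosa cells against ovary it was 3 and 2 (2.43% and 3.08%), and between the gonads 0 and 0 (0.155% and 0.0600%). Fbxw7, which marks the active receptor for breakdown, read 7.07 and 6.90 in Sertoli cells against 11.01 and 10.64 in testes and missed the threshold (-3.44 ± 0.70, adjusted p = 0.0194). In testes against ovaries Fbxw7 gave 1.29 ± 0.69 (adjusted p = 0.698), Numb, an inhibitor of the receptor, -0.80 ± 0.20 (adjusted p = 0.225), and Dtx1 -1.04 ± 0.64 (adjusted p = 0.759).

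Nrarp, a target that feeds back on the receptor complex, read 5.47 and 7.77 in Sertoli samples, 4.28 and 5.25 in pre-granulosa samples, 9.39 and 9.08 in testes, and 8.38 and 7.83 in ovaries. Each sorted group lay under its own gonad without overlap. The differences were -2.22 ± 0.75 in Sertoli cells against testes and -2.96 ± 0.75 in pre-granulosa cells against ovaries, and neither was called (limma adjusted p = 0.0724 and 0.0383). Dtx3 ran the other way, with 1.41 ± 0.33 and 1.25 ± 0.33 (adjusted p = 0.0277 and 0.0416), and Dtx1 gave 1.97 ± 0.64 in Sertoli cells against testes (adjusted p = 0.0660). With their chosen probe sets, the glycosylation and cleavage genes, with 4 and 8 measured, had 0 called in each of the 4 comparisons. Their differences lay between -0.80 and 1.07.

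**Figure D5:**
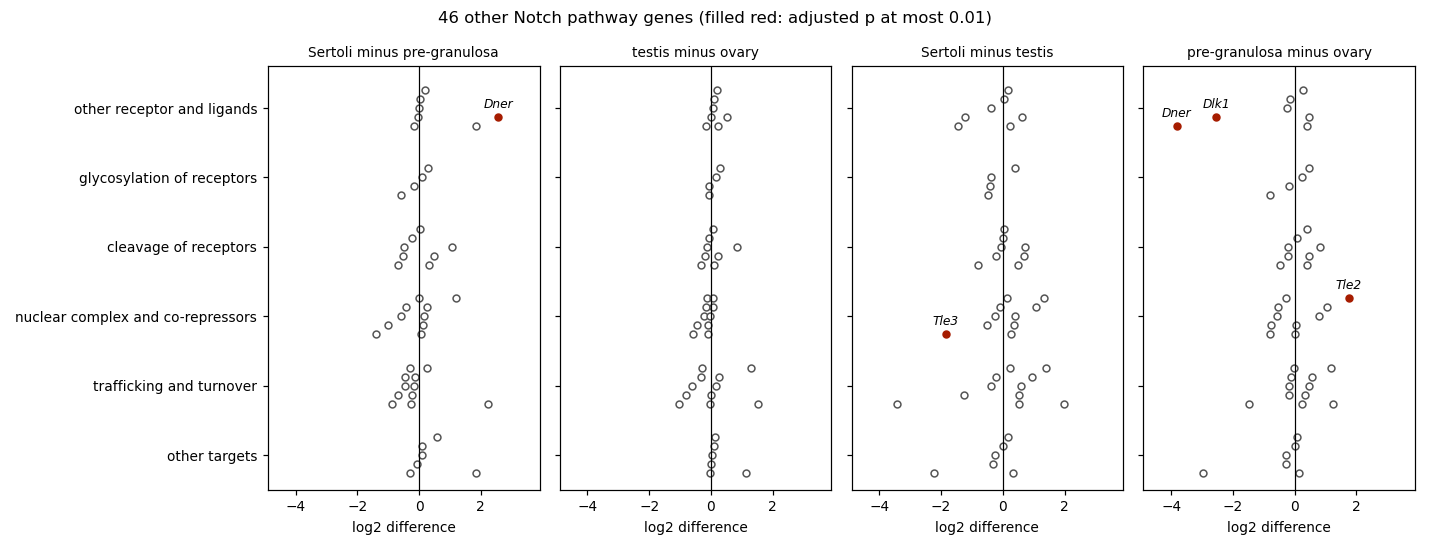
Log2 difference (horizontal axis) of the 46 other pathway genes in the 4 comparisons, by role; filled red points have an adjusted p of at most 0.01 and are named. The calls are Dner in Sertoli minus pre-granulosa, Tle3 in Sertoli minus testis, and Dner, Dlk1 and Tle2 in pre-granulosa minus ovary.

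The genes most like the 3 members with the largest XY minus XX differences were found by Pearson correlation over the 8 arrays, after each gene's mean was removed within the sorted and within the gonad arrays. They were sought among 2970 genes that differed by at least 1 in either comparison. For Lfng they were Ywhah, Fignl1, Hmgb3 and Wdr76, with r of 0.991, 0.987, 0.986 and 0.986. For Jag1 they were Sat1, Pcmtd2, Klhl9 and B2m (0.988, 0.988, 0.984 and 0.983), and for Hey1 Rassf8, Pmp22, Tbcel and Nr2c1 (0.962, 0.959, 0.958 and 0.957). B2m, a part of class I histocompatibility molecules, had 10.23 and 11.14 in Sertoli cells against 7.23 and 9.59 in pre-granulosa cells, and was thus low on the same pre-granulosa array as Jag1. These points share the arrays and their RNA, so the values are a description.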

How the data were processed

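RNA of 8 samples, about 20 ng each, was hybridised to Affymetrix mouse arrays. The deposited values are log2 levels, made with RMA, per the submitters' processing notes (version not given in the sources used here). Separate normalization of sorted and gonad arrays is inferred from their medians and not stated in the labels. Depth does not apply to arrays, and their number limits the precision.

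Probe sets with 1 gene symbol were assigned to genes (34945 of 45037; 932 had several symbols, 9160 none; 64 controls were left out), and a gene is summarised by its probe set with the highest mean. All probe sets were fitted with limma 3.58.1 in R 4.3.3: 1 mean per group over 8 arrays, eBayes, 4 residual degrees of freedom, two-sided tests, Benjamini-Hochberg adjustment over all 45037, calls at an adjusted p of at most 0.01, since the series text names a false discovery rate of 1%. "Higher" and "lower" without a p describe means or arrays that do not overlap. Where a group had no array above 4.78, the difference is given as the smallest one from that level, on the scale of its comparison. The procedure was tested on simulated data.

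Named genes were the 10 members, other pathway genes called in a comparison or, per comparison, the 2 highest and 2 lowest without overlap, 4 genes most like each of 3 members, and markers that move with a member. The members and lists were chosen with earlier results of these data known. Promoters were read from the RefSeq table of GRCm38.p6, which held 7 members but not Hes1, Hey1 or Heyl, and proteins were not used here. Alternatives were other normalizations, centring, filters, moderation, weights, a replicate block, a threshold of 0.05, other probe sets and omission of each array.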

Additional observations from a re-analysis of the deposited data

How the results depend on the processing

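Quantile normalization (all arrays, or each set alone), an intensity trend and a filter on the Y-linked level left every count of calls within 1.5 times its value. For the 19 member probe sets, Sertoli against pre-granulosa gave 0 calls and 1 at a threshold of 0.05, and 0 to 1 when 1 array was left out. Testis against ovary gave 0 calls, and 1 with 1 weight per group or at 0.05. Sertoli against testis gave 6 calls, 3 with probe sets above the median or without moderation, 10 at 0.05, and 0 to 6 when 1 array was left out. Pre-granulosa against ovary gave 4 calls, 2 with probe sets above the median, 2 with 1 weight per group, 0 without moderation, 0 with only the arrays compared, 7 at 0.05, 6 with centring switched, and 0 to 5 when 1 array was left out.

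For the other pathway genes, Sertoli against pre-granulosa gave 1 call, 0 without moderation, with 1 weight per group or with only the arrays compared, 4 at 0.05, and 0 to 2 when 1 array was left out. Sertoli against testis gave 1 call, 3 with centring switched, 4 with 1 weight per group, 0 without moderation, 9 at 0.05, and 0 to 5 when 1 array was left out. Pre-granulosa against ovary gave 3 calls, 2 with centring switched or 1 weight per group, 0 without moderation or with only the arrays compared, 5 at 0.05, and 0 to 7 when 1 array was left out.

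The replicate numbers do not pair the samples: deviations of same-numbered samples correlated between -0.16 and 0.05. A fit with the number as a replicate block gave 2 member calls for pre-granulosa against ovary, 5 for Sertoli against testis, and 0, 0 and 1 calls among other pathway genes for Sertoli against pre-granulosa, Sertoli against testis and pre-granulosa against ovary.

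Taking the probe set with the second highest mean reversed Notch1 (-0.33) and Lfng (-0.013) in testis minus ovary, Notch1 (0.87), Jag1 (0.41), Jag2 (0.10) and Lfng (-0.32) in Sertoli minus testis, and Jag1 (0.38) in pre-granulosa minus ovary. The cause was not tested. Of 970 recomputed member differences 892 kept their direction and side of the threshold or stayed within the replicate spread. Of the rest 38 moved beyond that spread, 18 became called, 15 lost their call and 7 reversed. The 892 include many whose size could not change. Omitting an array outside the comparison, or changing threshold, trend, moderation or group weights, leaves the difference as it was and alters at most its call. The share is therefore no measure of robustness. Probe sets near background limit the folds of Hey2, Heyl and Jag1 in sorted cells to lower bounds.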
